A study of Homo sapiens with 6 samples.

Results

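The genes described here are 3 Notch receptors (NOTCH1, NOTCH2 and NOTCH3), 3 ligands (DLL1, DLL3 and JAG1) and 4 members of the HES and HEY family of transcriptional repressors (HES1, HES5, HES6 and HEY1). They were chosen by name, as the rows whose Ensembl identifier maps to these symbols, and are 10 of the 60676 genes listed in the deposited tables. All 10 were found, once each. Total RNA was sequenced from the human neuroblastoma line SK-N-BE, which takes on neuronal features in retinoic acid. All cells had been kept for 1.5 days in differentiation medium with 10 μM retinoic acid, and the groups differed in the small interfering RNA (siRNA) they received. One group received a scrambled siRNA (si-SCR) and the other a pool of siRNAs against exon 2 of CyCoNP, a long noncoding RNA (si-CyCoNP), and each group held 3 libraries. No library without siRNA, without retinoic acid or from another line was analysed here. The labels do not say whether replicates were separate cultures, so p-values measure only the spread between these libraries, which may be technical.

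Notch receptors are membrane proteins that are activated by Delta-like (DLL) and Jagged (JAG) ligands on neighbouring cells. Ligand binding leads to cleavage by ADAM proteases and then by γ-secretase, and the released intracellular domain enters the nucleus, where it joins the DNA-binding protein RBPJ and the Mastermind coactivators. HES1, HES5 and HEY1 are classical targets of this complex, and their products repress proneural factors, which holds neural progenitors back from differentiation. HES6 is set apart, since its product counteracts HES1 and promotes neuronal differentiation.

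The comparison asks whether the RNA of these genes differed when CyCoNP was depleted in differentiating cells. HEY1 rose 1.81-fold and HES1 fell 2.19-fold in si-CyCoNP, so that these related repressors changed in opposite directions. HES6 fell 1.65-fold, and the ligand DLL3 was lower by 1.43-fold without passing the test. RNA of the receptors was scarce in both groups, that of DLL1 and JAG1 was near the detection limit, and HES5 was not detected in any library.

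The count totals lay between 3762009 and 4799407 fragments per library. They are fragments counted in genes, and the study reports far more sequenced reads per sample. Depth below refers to these totals. CyCoNP RNA, from the gene LINC02381, fell from 14.4 ± 1.31 to 1.10 ± 0.498 FPKM (SD, n = 3, log2 fold change -3.78, SE 0.190, edgeR quasi-likelihood test, adjusted p = 6.84e-14), which matched the group labels. FPKM is the fragment count scaled by gene length and library total, and levels are compared between genes only on this scale. Of all genes, 13966 had a mean of at least 1 FPKM in either group and were tested, and 28.4% of these had an adjusted p under 0.05, 14.2% higher and 14.2% lower. "Called" is used below for genes that also had a log2 fold change above 1 or below -1, which held for 5.26% of the genes tested, 2.28% higher and 2.98% lower. The groups of libraries did not overlap in FPKM for 40.3% of the genes tested. In these bulk libraries fewer cells of a type and less RNA per cell cannot be told apart.

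Letters that match the core of the sites bound by Notch complexes and HES proteins are shown first, because HES1 is a target of both. Promoter sequence from 250 bases before to 50 bases after the start was given by RefSeq (GRCh38.p14) for 7 of the 10 genes, and not for DLL1, DLL3 and HEY1. The core of the RBPJ site was searched as TGGGAA on both strands. It was found in the promoters of HES1 and HES5, with 2 copies each, and in none of the other 5 promoters. Of 35116 promoters of this length, 24.0% hold at least 1 copy and 3.80% hold 2 or more. In HES1 the copies of these letters lie in the same orientation 84 and 70 bases before the start. Sites with other letters were not searched, so these copies need not be the pair of sites that is bound. They are printed below in capitals (chr3:194136059-194136088, plus strand), followed by the HES5 matches (chr1:2530477-2530492 and chr1:2530333-2530348). The latter lie 224 and 80 bases before the start and are printed on the minus strand that HES5 is read from.
HES1: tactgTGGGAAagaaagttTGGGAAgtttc
HES5, distal: gcgcgTTCCCAcagcc
HES5, proximal: gagtgTGGGAAcggcc

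The N box, to which HES proteins bind when they repress genes, was searched as CACNAG on both strands. The HES1 promoter held 4 copies, against 2 overlapping copies in NOTCH1, 1 each in NOTCH2 and NOTCH3, and none in HES5, HES6 and JAG1. At least 1 copy was present in 38.0% of all promoters and 2 or more in 8.94%. The plus-strand copies of HES1 are printed with the box in capitals (chr3:194136011-194136026 and chr3:194136085-194136100), 132 and 58 bases before the start. The second stands next to the TGGGAA copies, where a site with other letters was not searched.
HES1, upstream N box: cggtcCACGAGcggtg
HES1, downstream N box: tttcaCACGAGccgtt

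The study followed the microRNA miR-4492 as a partner of CyCoNP, and its mature sequence is therefore given with the seed (bases 2 to 8) in capitals (RefSeq, chr11:118910765-118910781, GRCh38.p14). Seed matches, CCAGCCC, were counted in the longest annotated 3′ untranslated region (UTR) of each gene. HES6 had 4, of which the first is printed with the match in capitals and lies at position 105 of its UTR. NOTCH1, NOTCH2, NOTCH3, JAG1 and HEY1 had 1 each, and HES1, HES5, DLL1 and DLL3 had none. A match was present in 25.1% of 10487 protein-coding genes tested, in 28.0% of the called genes that fell and in 34.9% of those that rose. How many genes hold several matches was not counted, nor was UTR length or base content considered, so whether 4 matches are unusual was not tested. Motifs and seed matches are descriptions of letters in these windows, and no binding was measured in these libraries.
hsa-miR-4492: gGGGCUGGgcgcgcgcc
HES6, first match: cccaatacCCAGCCCcccgggtc

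Among the 10 genes, 4 passed the expression filter (HEY1, HES1, HES6 and DLL3) and 6 did not. The lowest group mean of the former was 4.06 FPKM and the highest group mean of the latter was 0.342 FPKM, so that no gene lay close to the filter. Of the 4, 1 rose and 2 fell at an adjusted p under 0.05, and 1 was called, HES1. The median log2 fold change of the 4 was -0.62, beside 0.0053 for all genes tested.

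HEY1 (ENSG00000164683, chromosome 8 from 79762371 to 79767857, minus strand, GRCh38) encodes a repressor that acts downstream of Notch in vessels, heart and nervous system. Its levels were 21.5, 24.6 and 27.3 FPKM in the si-SCR group and 46.5, 46.0 and 46.7 FPKM after si-CyCoNP. Every si-CyCoNP library lay above every si-SCR library, and the si-CyCoNP libraries lay closer together (24.5 ± 2.92 against 46.4 ± 0.367 FPKM, SD, n = 3). The underlying counts were 298, 298 and 422 against 720, 630 and 624. The log2 fold change was 0.85 ± 0.0936 (SE, edgeR, adjusted p = 6.44e-08), which is short of the threshold of 1 for a call. Among all genes tested 7.90% had a higher log2 fold change.

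HES1 (ENSG00000114315, chromosome 3 from 194136148 to 194138732, plus strand, GRCh38) encodes the repressor that keeps neural progenitors undifferentiated and that also represses its own promoter. Its levels were 13.3, 8.26 and 12.6 FPKM in the si-SCR group and 5.67, 3.89 and 6.91 FPKM after si-CyCoNP. The si-CyCoNP libraries were all lower, with replicate 2 the lowest of each group. The counts were 118, 64 and 124 against 56, 34 and 59, and the group means 11.4 ± 2.74 against 5.49 ± 1.52 FPKM (SD, n = 3). The log2 fold change was -1.13 ± 0.210 (SE, edgeR, adjusted p = 0.000148), and 5.36% of all genes tested had a lower value. HES1 passed the test under all 14 alternatives, with log2 fold changes from -1.33 to -0.93, but lay close to the fold threshold. It was no longer called without si-SCR replicate 1 (-0.99), without si-CyCoNP replicate 2 (-0.93) or on the log2(FPKM + 1) scale (-0.94).

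HES6 (ENSG00000144485, chromosome 2 from 238238267 to 238240662, minus strand, GRCh38) encodes a family member that counteracts HES1 and promotes neuronal differentiation. It had 10.6, 9.25 and 10.5 FPKM in the si-SCR group and 4.91, 9.03 and 5.43 FPKM after si-CyCoNP. The groups did not overlap, but si-CyCoNP replicate 2 lay just below the lowest si-SCR library. The counts were 89, 68 and 98 against 46, 75 and 44, and the group means 10.1 ± 0.750 against 6.46 ± 2.25 FPKM (SD, n = 3). The log2 fold change was -0.72 ± 0.204 (SE, edgeR, adjusted p = 0.00805). Leaving out si-CyCoNP replicate 2 gave -1.03, past the threshold for a call, whereas leaving out si-CyCoNP replicate 1 gave -0.55 and an adjusted p of 0.0612. The test was also missed with limma on FPKM, with adjusted p of 0.0758 on the log2(FPKM + 1) scale and 0.0769 on the log2(FPKM + 0.1) scale.

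The balance of HEY1 to HES1 was calculated in each library from their FPKM. It was 1.61, 2.97 and 2.17 in the si-SCR group and 8.21, 11.8 and 6.75 after si-CyCoNP. HEY1 was the higher of the pair in every library, and its excess was larger in every si-CyCoNP library than in any si-SCR library, with means of 8.93 ± 2.61 and 2.25 ± 0.684 (SD, n = 3). The ratio restates the levels above and was not tested on its own.

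**Figure D1:**
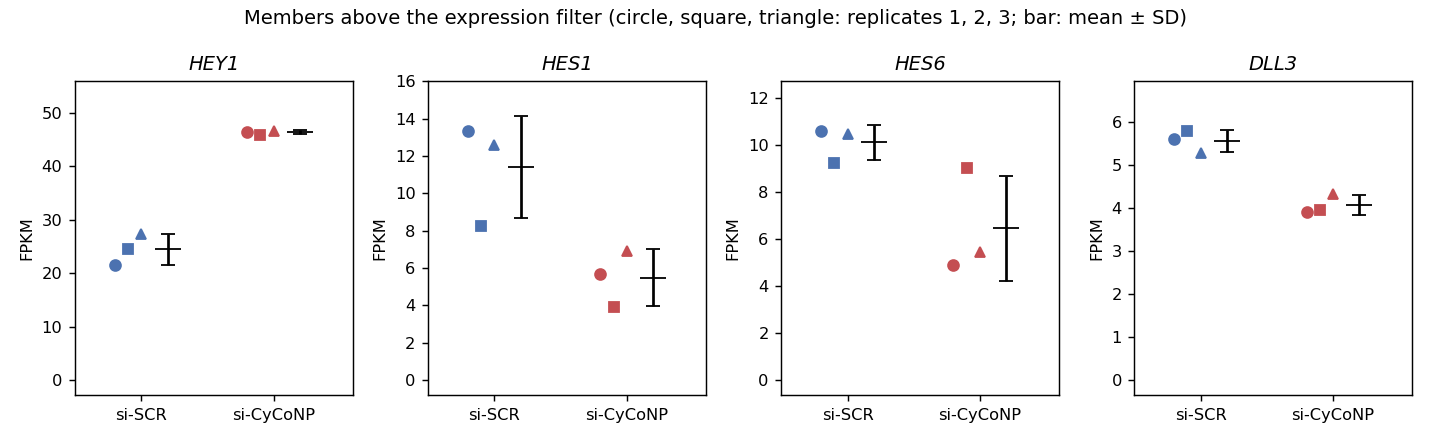
Levels of the 4 expressed genes in FPKM (vertical axes, linear, a separate scale for each gene) in the 3 si-SCR and 3 si-CyCoNP libraries, with 1 point per library, the marker shape giving the replicate number and the bar the mean ± SD. HEY1 is higher in all si-CyCoNP libraries, and HES1, HES6 and DLL3 are lower, with si-CyCoNP replicate 2 of HES6 at 9.03 FPKM beside the lowest si-SCR library at 9.25 FPKM.

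HES5 (ENSG00000197921), a direct Notch target in neural stem cells, had 0 counts in all 6 libraries. A count of 0 allows up to 3 counts, or 0.625 to 0.797 CPM (counts scaled to the library total) in a library and 0.115 CPM over all 26034682 counts, for counting error only. Its promoter held 2 copies of TGGGAA, the same number as that of HES1, but 224 and 80 bases before the start and on opposite strands. HES1, whose copies lie close together in the same orientation, was detected in every library. Whether these letters bear on either level was not tested.

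DLL3 (ENSG00000090932, chromosome 19 from 39498895 to 39508481, plus strand, GRCh38) is a divergent ligand that stays largely inside the cell, where it dampens Notch signalling, and is prominent in neuroendocrine tumours. It was the only ligand of the 3 above the filter, with 5.60, 5.79 and 5.27 FPKM in the si-SCR group and 3.90, 3.95 and 4.33 FPKM after si-CyCoNP. No si-CyCoNP library reached the lowest si-SCR library, and both groups were tight (5.55 ± 0.262 and 4.06 ± 0.234 FPKM, SD, n = 3). The counts were 63, 57 and 66 against 49, 44 and 47. The log2 fold change was -0.52 (SE 0.198), and the edgeR quasi-likelihood test narrowly missed the threshold (adjusted p = 0.0515). Over the 14 alternatives the estimate ran from -0.58 to -0.37 and the adjusted p from 0.0237 to 0.133, and 6 of them passed. A block for the replicate number gave an adjusted p of 0.0327, and leaving out si-SCR replicate 3 gave 0.0469.

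**Figure D2:**
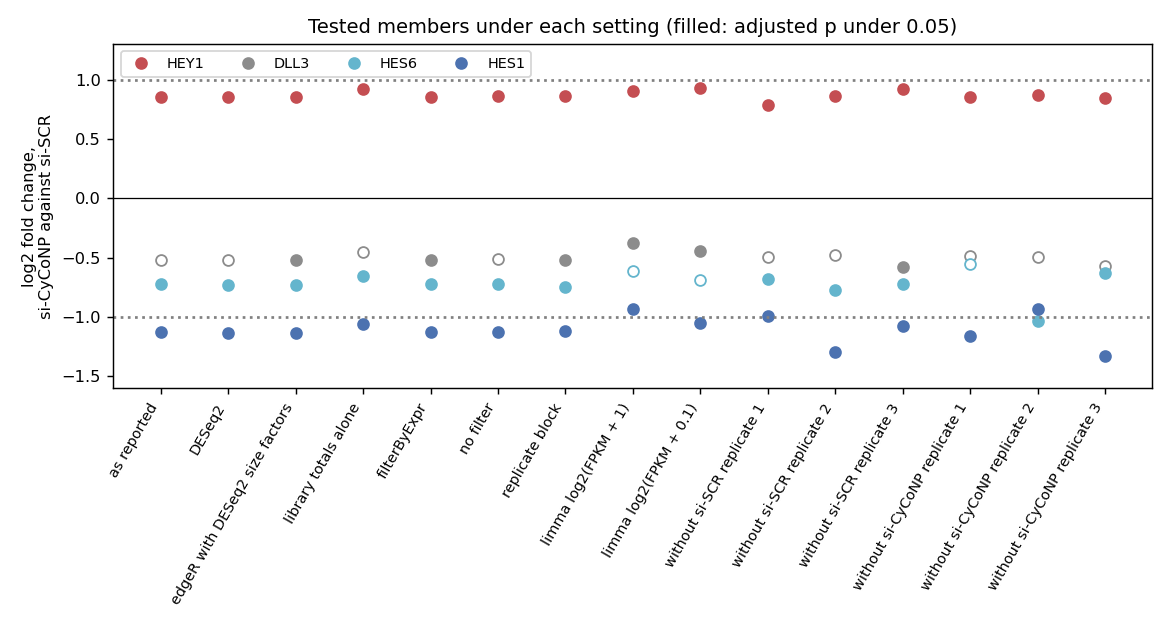
Log2 fold change of the 4 expressed genes (vertical axis, si-CyCoNP against si-SCR) as reported and under the 14 alternatives (horizontal axis), with filled points where the adjusted p was under 0.05 and dotted lines at the fold thresholds. HEY1 stays between 0.78 and 0.93, HES1 between -1.33 and -0.93, and DLL3 and HES6 pass the test under some alternatives and not under others.

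DLL1 (ENSG00000198719) and JAG1 (ENSG00000101384) encode classical activating ligands. DLL1 had 0, 4 and 0 counts in the si-SCR group and 4, 0 and 0 after si-CyCoNP, so that its 8 counts came from 1 library of each group. JAG1 had 2, 3 and 4 counts in the si-SCR group and 1, 2 and 2 after si-CyCoNP. Both were at or near the floor of 3 counts, and a difference between the groups was not detectable at this depth. JAG1 without any filter gave an adjusted p of 0.616 and DLL1 0.972 (edgeR quasi-likelihood test, 26702 genes, of which 15.1% passed).

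NOTCH2 (ENSG00000134250) showed the clearest separation among the receptors, at a low level. It had 29, 13 and 15 counts in the si-SCR group and 5, 4 and 8 after si-CyCoNP, which are 0.339, 0.173 and 0.157 FPKM against 0.0523, 0.0472 and 0.0968 FPKM. The groups did not overlap, and si-SCR replicate 1 held about as many counts as the other si-SCR libraries together. NOTCH2 was not tested under the filter of 1 FPKM. Without a filter its log2 fold change was -1.82 (SE 0.446), equal to a decrease of 3.54-fold (edgeR, adjusted p = 0.000585), and under the default filter of edgeR it was -1.83 (adjusted p = 0.00499). This rests on si-SCR replicate 1, since without that library the unfiltered estimate was -1.37 and did not pass (adjusted p = 0.0749). NOTCH2 has near-identical copies, the NOTCH2NL genes, and fragments that map to several places were not counted, so its level is uncertain. NOTCH2NLA and NOTCH2NLC had at most 3 counts in any library, and NOTCH2NLB and NOTCH2NLR had none.

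NOTCH1 (ENSG00000148400), the most widely expressed receptor of neural progenitors, had 6, 2 and 1 counts in the si-SCR group and 5, 2 and 2 after si-CyCoNP. NOTCH3 (ENSG00000074181), which is known best from vascular smooth muscle, had 18, 15 and 7 counts against 15, 7 and 8. In both genes the groups overlapped. Without a filter the adjusted p was 0.970 for NOTCH1 and 0.534 for NOTCH3, with log2 fold changes of -0.12 (SE 0.896) and -0.54 (SE 0.430), so that only large changes could have been seen. NOTCH4, the remaining receptor, also lay under the filter, with 14 to 24 counts in every library, and shares exons with GPSM3 on the same strand. Added over the 4 receptors, the level was between 0.740 and 1.44 FPKM in si-SCR and between 0.782 and 0.846 FPKM in si-CyCoNP.

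**Figure D3:**
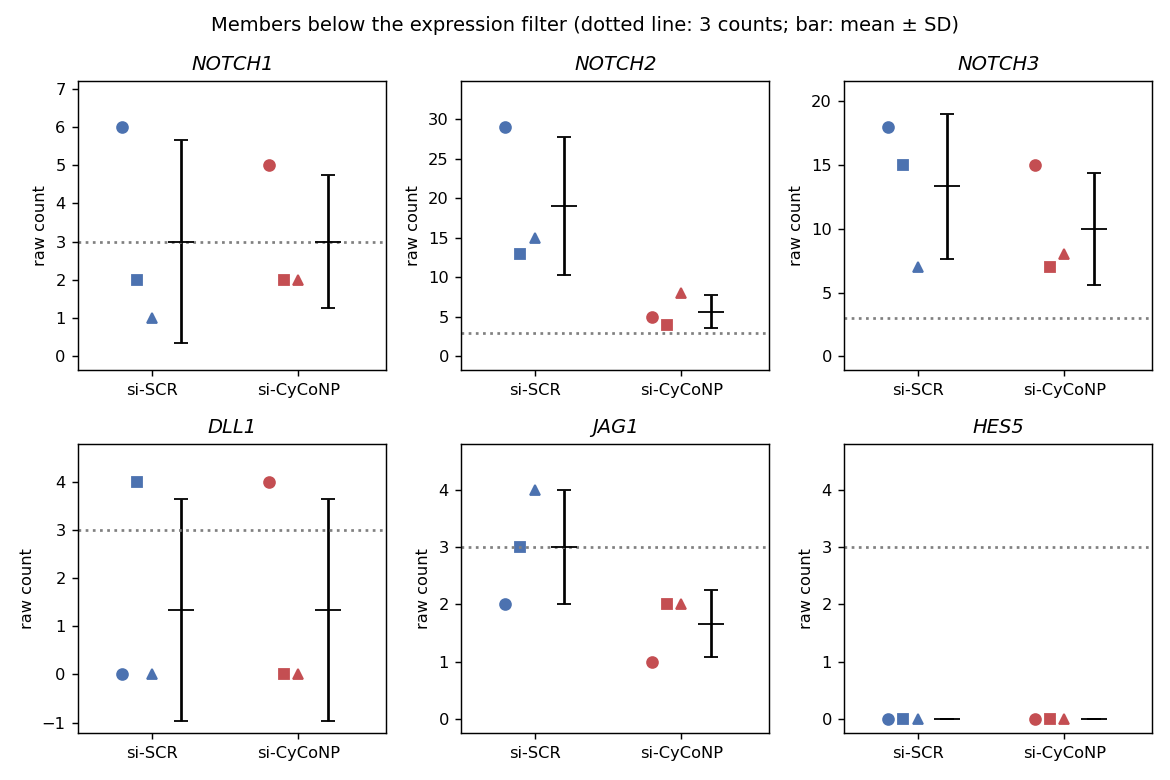
Raw counts (vertical axes, linear, a separate scale for each gene) of the 6 genes under the expression filter in the 3 si-SCR and 3 si-CyCoNP libraries, with 1 point per library, the marker shape giving the replicate number, the bar the mean ± SD and the dotted line the floor of 3 counts. NOTCH2 separates the groups with 13 to 29 against 4 to 8 counts, the other genes overlap, and HES5 is at 0 throughout.

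The order of the levels was set by HEY1, which stood above all the others in both groups. In si-SCR it was followed by HES1 and HES6, whose ranges overlapped, then by DLL3, and then by NOTCH3, NOTCH2, DLL1, JAG1 and NOTCH1, in which each neighbour overlapped the next. In si-CyCoNP HES6, HES1 and DLL3 followed HEY1, and the range of HES1 overlapped both of the others, while the lowest HES6 library (4.91 FPKM) still lay above the highest DLL3 library (4.33 FPKM). Placed among the levels of all genes tested, HEY1 stood above 88.8% of them in si-SCR and above 94.6% in si-CyCoNP. HES1 moved from 73.5% to 50.8%, HES6 from 70.0% to 55.8% and DLL3 from 52.3% to 42.2%. Of the remaining genes grouped with the HES and HEY factors on the pathway list below, only BHLHE40 passed the filter. It is a related repressor and not itself a HES or HEY gene.

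For HES1, the only gene of the 10 that was called, the genes with the most similar profile over the 6 libraries were ZBTB1 (Pearson's r = 0.998 on log2 CPM), ENSG00000261575, which has no symbol (0.991), and SSBP1 (0.990). These are descriptions over 6 points that share the difference between the groups, and 2.92% of all genes tested had an r above 0.9 with HES1. The log2 fold changes of ZBTB1 and SSBP1 were -0.33 and -0.27, smaller than that of HES1, and that of ENSG00000261575 was larger but did not pass the test (-2.22, adjusted p = 0.137).

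The other genes of the pathway were taken from a list of 88 genes in 10 roles, written from general knowledge. Of these, 60 were tested, and 13 rose, 15 fell and 32 did not pass at an adjusted p of 0.05. The share that passed, 46.7%, stands beside 28.4% of all genes tested, and the median log2 fold change was -0.08. With the fold threshold, 2 were called higher (BHLHE40 and DTX4) and 3 lower, among them KAT2B and LFNG. DTX4 passed the expression filter only through si-CyCoNP (0.569 and 1.24 FPKM in si-SCR and si-CyCoNP). KAT2B (2.03 and 0.391 FPKM) and LFNG (1.10 and 0.424 FPKM) passed it only through si-SCR. The filter thus admitted these genes by the group where they were high. Without a filter the adjusted p was 0.00686, 4.81e-12 and 0.0145 for DTX4, KAT2B and LFNG (edgeR).

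The genes acting on the receptor before and during cleavage passed the test in 1 direction. Of 9 proteases of receptor cleavage, 4 fell, none rose and 5 did not pass, with a median log2 fold change of -0.50. The shedding protease ADAM17 fell from 9.17 to 5.89 FPKM (log2 fold change -0.70, adjusted p = 6.47e-06), and FURIN, which processes the receptor precursor, fell from 14.7 to 10.2 FPKM (-0.59, adjusted p = 0.000467). Of 5 tested genes of receptor glycosylation, 2 fell and none rose. LFNG, a Fringe enzyme that changes which ligands a receptor answers to, had 17, 11 and 22 counts in the si-SCR group and 11, 4 and 5 after si-CyCoNP, with 1 si-CyCoNP library level with the lowest si-SCR library in counts. Its log2 fold change was -1.41 (SE 0.453, adjusted p = 0.0201), and the call was lost with DESeq2 (adjusted p = 0.0601) and without si-SCR replicate 1 (0.0518), si-CyCoNP replicate 2 (0.0889) or si-CyCoNP replicate 3 (0.0674). With limma the LFNG estimate was -0.56 on the log2(FPKM + 1) scale (adjusted p = 0.164) and -1.24 on the log2(FPKM + 0.1) scale (adjusted p = 0.121), and without si-SCR replicate 3 LFNG fell under the expression filter and was not tested. POGLUT1, which adds glucose to the receptor, fell from 7.64 to 5.73 FPKM (-0.48, adjusted p = 0.00308). The only other ligand gene tested was DLK1, a noncanonical ligand, which was far more abundant than DLL3, with 140.2 ± 20.7 and 125 ± 19.0 FPKM (SD, n = 3), and overlapped between the groups (-0.23, adjusted p = 0.0896). DLK1 passed under 5 of the 14 alternatives, with an adjusted p of 0.00344 under the replicate block, 0.0273 with no filter, and 0.0307, 0.000308 and 0.0349 without si-SCR replicate 1, si-SCR replicate 3 and si-CyCoNP replicate 2. Its estimate shrank to -0.096 without si-SCR replicate 2 and to -0.12 without si-CyCoNP replicate 1 (adjusted p of 0.539 and 0.461).

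Genes of ubiquitination and trafficking went both ways, with 4 higher and 4 lower of 16. DTX4, an E3 ubiquitin ligase of the Deltex family, rose from 0.569 to 1.24 FPKM (log2 fold change 1.03, SE 0.309, adjusted p = 0.0127), just past the fold threshold. It was no longer called without si-SCR replicate 2 (0.83, adjusted p = 0.0653) or without si-CyCoNP replicate 2 (0.84, adjusted p = 0.0923), nor with limma on log2(FPKM + 1) (0.52, adjusted p = 0.159) or log2(FPKM + 0.1) (1.02, adjusted p = 0.120). EPN1, an endocytic adaptor of the ligand-bearing cell, rose by 0.62 on the log2 scale (adjusted p = 2.39e-05), and NEDD4, a ubiquitin ligase that lowers receptor levels, fell by 0.77 (adjusted p = 0.00012).

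Of the 10 genes of the nuclear complex, 3 rose and 1 fell. The one that fell was KAT2B, an acetyltransferase that the complex can recruit. It had 47, 47 and 40 counts in the si-SCR group and 10, 11 and 6 after si-CyCoNP, far apart, a 5.33-fold decrease (log2 fold change -2.41, SE 0.323, adjusted p = 1.65e-06). MAML2, a Mastermind coactivator, rose from 3.99 to 6.57 FPKM (0.66, adjusted p = 0.00134). RBPJ itself, named here for its place in the complex and after its value was seen, had a log2 fold change of -0.05 (SE 0.0951, adjusted p = 0.746). Among 14 tested genes listed with the corepressors, 4 rose and 1 fell. TLE5, a short Groucho family protein placed in this list by family and not by its own activity, rose from 28.8 to 52.0 FPKM (0.79, adjusted p = 4.64e-08).

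Of 4 tested proneural factors and their partners, 1 rose and 3 fell. TCF3, an E protein partner of proneural factors, rose from 17.5 to 32.7 FPKM (0.84, adjusted p = 8.68e-08). The other E proteins listed, TCF4 and TCF12, were among the 3 that fell. BHLHE40, a repressor related to the HES family, had 51, 54 and 115 counts in the si-SCR group and 176, 195 and 178 after si-CyCoNP, with si-SCR replicate 3 nearest to the other group, and rose 2.35-fold (log2 fold change 1.23, SE 0.177, adjusted p = 4.63e-06).

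**Figure D4:**
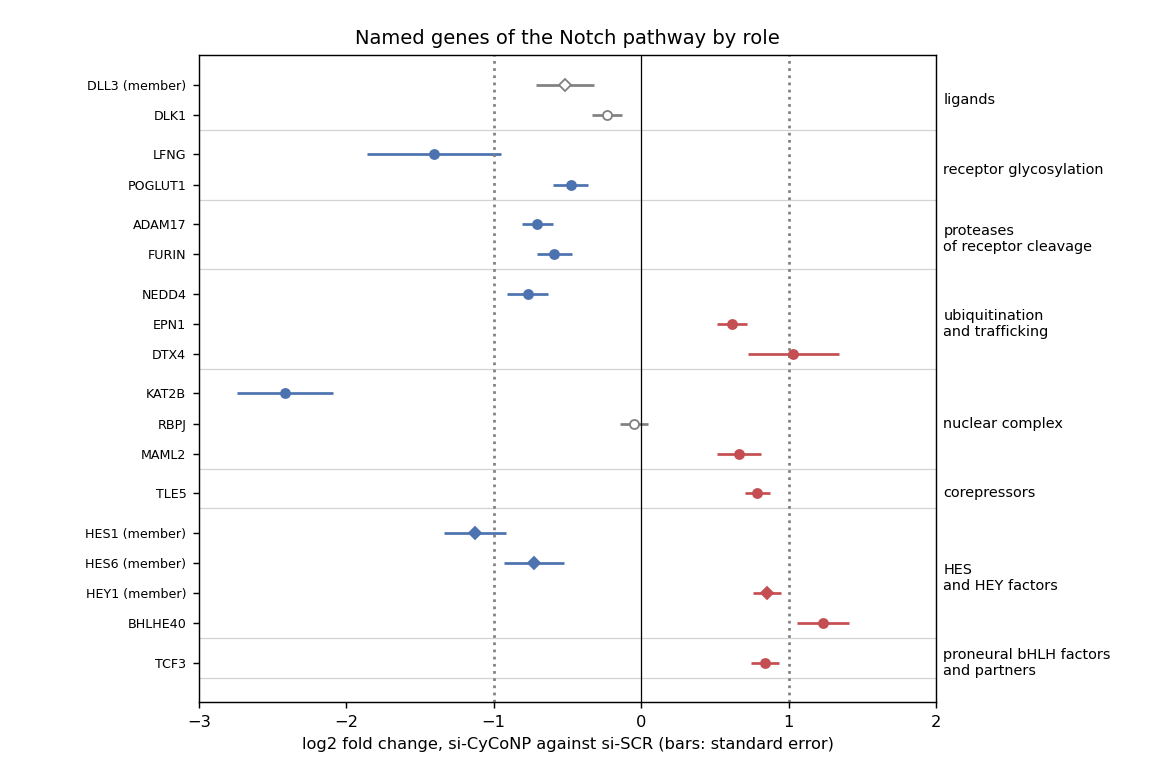
Log2 fold change (horizontal axis, si-CyCoNP against si-SCR, bars for the standard error) of 18 tested genes of the Notch pathway whose values are given here, by role (vertical axis), with diamonds for the 4 expressed genes of the set, red and blue for genes that rose and fell at an adjusted p under 0.05, open points for genes that did not pass and dotted lines at the fold thresholds. HES1 at -1.13 and HES6 at -0.72 lie opposite HEY1 at 0.85 and BHLHE40 at 1.23, and KAT2B at -2.41 lies farthest from 0.

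Markers of the cell states found in neuroblastoma lines were read beside these results. Adrenergic markers, which define the sympathetic type of neuroblastoma, were present in every library, and of 14 tested 11 fell and 1 rose (MYCN), with a median log2 fold change of -0.57. PHOX2A, a defining transcription factor of this state, fell from 734 ± 98.3 to 352 ± 28.5 FPKM, and CHGA, a granule protein, fell from 575 ± 153 to 256 ± 18.5 FPKM, while MYCN rose from 428 ± 19.0 to 806 ± 57.7 FPKM (SD, n = 3). Their summed level ran from 3113 to 3628 FPKM in si-SCR and from 2460 to 2684 FPKM in si-CyCoNP. Of 15 mesenchymal markers, 9 were tested, 4 rose and 3 fell, and the defining factor PRRX1 was at 0, with a summed level of 116.4 to 143.4 against 111.9 to 115.9 FPKM. The most abundant, which weigh most in the sum, were VIM (56.3 and 43.9 FPKM), TWIST1 (48.0 and 49.0 FPKM) and FOSL2 (14.2 and 6.83 FPKM). None of them was among the 4 that rose, which were all called and started from low levels. These were FN1 (0.697 and 5.41 FPKM), COL1A1 (0.450 and 1.50 FPKM), COL3A1 (0.148 and 1.07 FPKM) and FOSL1 (0.152 and 1.28 FPKM). All 4 passed the filter only through the si-CyCoNP group, where they were high, so the filter shaped this count. AXL (0.497 and 0.146 FPKM) was lower in si-CyCoNP but under the filter in both groups, and was not tested. Without a filter its adjusted p was 0.0211 (edgeR). Of the 3 that fell, 2 were called, FOSL2 and SNAI2 (7.08 and 3.07 FPKM), and both were above the filter in each group. Of 7 Schwann and glial markers, S100B and ERBB3 had group means of at most 0.422 and 0.0178 FPKM, and SOX10 and FOXD3 were at 0. The summed level of the 7 was 1.52 to 3.37 FPKM in si-SCR and 8.78 to 14.7 FPKM in si-CyCoNP. The adrenergic and glial sums moved with HEY1, HES1 and HES6 between the groups, and their part in those results was not tested.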

How the data were processed

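Stranded total RNA libraries depleted of ribosomal RNA were made from 3 si-SCR and 3 si-CyCoNP samples, and the sample titles gave the group and the replicate number of each. The submitters' processing notes and the study's methods name Trimmomatic 0.39, cutadapt 3.2, Bowtie2 2.4.2 for ribosomal reads and STAR 2.7.7a on GRCh38. The deposited count table holds raw counts per Ensembl gene, which the authors made from uniquely mapping fragments. The deposited FPKM table was made by the authors from the same counts, scaled by gene length and library total, and implied 1 length per gene in all 22586 genes compared (relative tolerance 1e-06). Symbols were matched for 60357 identifiers, and coordinates and UTRs were read from GENCODE release v44, which is not the Ensembl release of the authors.

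Counts were scaled by TMM, and the groups were compared in R 4.3.3 by edgeR 4.0.16 (quasi-likelihood F test), with Benjamini-Hochberg adjustment over the 13966 genes with a mean of at least 1 FPKM in either group. Adjusted p-values in the text come from this test unless another is named. The study's methods name DESeq2 with this filter and a log2 threshold of 1. DESeq2 1.42.0, its size factors, library totals alone, the default filter of edgeR (filterByExpr), no filter, the replicate number as a block, limma 3.58.1 on log2(FPKM + 1) and log2(FPKM + 0.1), and leaving out each library were the alternatives. Profiles were compared on log2 CPM with a prior count of 2. The genes named were the 10 chosen genes, LINC02381, every other pathway gene called, the 2 with the smallest p in each role, the most abundant genes (up to 3) of each marker list and the 3 genes most similar to a called gene. Also named, after their values were seen, were SNAI2, AXL, TCF4, TCF12 and the mesenchymal markers that rose. The genes and lists were chosen with earlier results of these data known. Counts hold PCR duplicates, so floors cover counting error only. Protein sequences were not analysed here. The values of 3 genes of the pathway and marker lists are not reported here, and they enter only the list summaries.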

Additional observations from a re-analysis of the deposited data

How the results depend on the processing

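None of the 4 expressed genes changed direction under any of the 14 alternatives. At an adjusted p of 0.05 1 gene was higher throughout, and the 2 lower genes became 4 under filterByExpr, where NOTCH2 and DLL3 joined, and 1 without si-CyCoNP replicate 1. The single lower call became 2 under filterByExpr and with no filter, where NOTCH2 joined, and 0 with limma on log2(FPKM + 1), where low values are compressed. Leaving out 1 library gave 1 to 1 genes higher and 1 to 3 lower, 0 to 0 called higher and 0 to 1 called lower, and a median log2 fold change of the expressed genes from -0.71 to -0.52. Among the other pathway genes it gave 10 to 13 higher and 11 to 15 lower, 1 to 2 called higher and 2 to 3 called lower, and over all genes 295 to 400 called higher and 359 to 507 lower. The limma fits gave 7 other pathway genes lower and 1 called higher on both FPKM scales, and on the log2(FPKM + 1) scale 207 genes called higher and 180 lower over all. LINC02381 stayed between -4.16 and -2.90. With library totals alone the median of all genes shifted to 0.0724, and 394 genes were called higher and 350 lower, against 319 and 416.

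Same-numbered libraries of the groups deviated together only weakly (correlations 0.0907, 0.0727 and 0.108), so the numbers were not taken as pairs, although every library correlated best with its own number. With the replicate block, 330 genes were called higher and 422 lower over all, 1 gene of the set was higher and 3 were lower, with 1 call and a median of -0.63, and of the other pathway genes 13 were higher and 19 lower. The log2 fold changes in the block fit were -1.12 for HES1, -0.75 for HES6 and -0.52 for DLL3. Depth limits the receptors, DLL1, JAG1 and HES5, which had at most 29 counts in any library. Leaving out each library for NOTCH2 with no filter, an alternative chosen after seeing the data, gave -2.20 to -1.37.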
